A study of Dendrobium catenatum with 16 samples.

Results

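The genes of the photosynthetic machinery and of chlorophyll synthesis were followed in cultured plantlets of Dendrobium catenatum, an orchid grown for its polysaccharide-rich stems. Genes were taken by words in their deposited descriptions: chlorophyll a-b binding, photosystem, oxygen-evolving, ribulose bisphosphate carboxylase, plastocyanin, protochlorophyllide, magnesium-chelatase, chlorophyll synthase and glutamyl-tRNA reductase. The rule found 64 of 28537 features in the table of the second experiment, and 63 of these were also among the 23063 features of the first. They comprise 16 light harvesting genes, 14 for photosystem I, 13 for photosystem II and oxygen evolution, 7 plastocyanins, 5 for Rubisco and 9 for chlorophyll synthesis. The rule used no measured value, but genes and lists were chosen with earlier results of these data known.

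Light harvesting proteins hold chlorophyll and carotenoids around the reaction centres. Photosystem II takes electrons from water at its oxygen-evolving complex, plastocyanin carries them to photosystem I, and Rubisco fixes carbon dioxide with the energy so gained. Chlorophyll is built from glutamate by a pathway whose entry enzyme is glutamyl-tRNA reductase, and in flowering plants protochlorophyllide reductase needs light. Cytokinins are known to promote greening and chloroplast development in many plants, whereas light harvesting genes as a class also respond to light, to the daily cycle and to leaf age.

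RNA was sequenced from young leaves, stems and shoots in 16 libraries of poly(A)-selected RNA. In the first experiment plantlets 2 months old stood for 3 weeks on medium with 0.1 mg/L NAA (naphthaleneacetic acid, a synthetic auxin) plus 1.0 mg/L 6-BA (benzyladenine, a synthetic cytokinin), with 1.0 mg/L 6-BA alone, with 0.1 mg/L NAA alone, or with distilled water, with 2 biological replicates per group. In the second, plantlets 9 months old stood for 4 or for 2 weeks on medium with 6-BA at 0 mg/L (distilled water), 0.5, 1.0 or 2.0 mg/L, with 1 library per condition. All plantlets came from seed, and all grew on sugar-containing medium in a light and dark cycle; the sources used here do not give the hour of harvest. A library holds several organs together, and the labels do not say how many plantlets it pools.

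Libraries of the first experiment held 34289743 to 74461337 counts, and those of the second 15090869 to 16257836. Levels below are the FPKM that the authors deposited (fragments scaled to gene length and to library size), which allow genes to be compared with each other. The tables of the experiments were normalised separately, so levels were tested within an experiment only. Of a list of 12 root genes, the summed FPKM was 82.1 to 145 in the 16 libraries, and of 37 floral genes 28.0 to 49.8. The 64 photosynthesis and chlorophyll genes summed to 30050 to 93300. These are sums of different genes, so their sizes do not give the share of an organ in a library. The ranges span both experiments and do not compare them. In bulk tissue, fewer green cells and less of a transcript per green cell cannot be told apart. Of the 64 genes, 61 passed the filter on low counts in every fit. The exceptions were LOC110095737 (Rubisco large chain) and LOC114579029 (photosystem II D2-like), at no more than 0.148 and 0.058 FPKM in any library, and a plastocyanin-like locus without a gene number at no more than 0.9 FPKM.

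The 64 genes took 4.86% to 6.04% of all counts in the libraries of the first experiment. In the second they took 3.42%, 4.68%, 5.27% and 3.27% at 4 weeks, from 0 mg/L through 0.5 and 1.0 to 2.0 mg/L, and 5.90%, 5.75%, 6.53% and 7.70% at 2 weeks in the same order of doses, which is kept below. The 4-week libraries were thus each below every 2-week library. Within the first experiment the highest of the 8 libraries exceeded the lowest by a median of 1.32-fold per gene, and 56 of 61 genes stayed under 1.5-fold. Within the second the median was 3.17-fold, and 51 of 61 genes reached at least 2-fold.

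**Figure D1:**
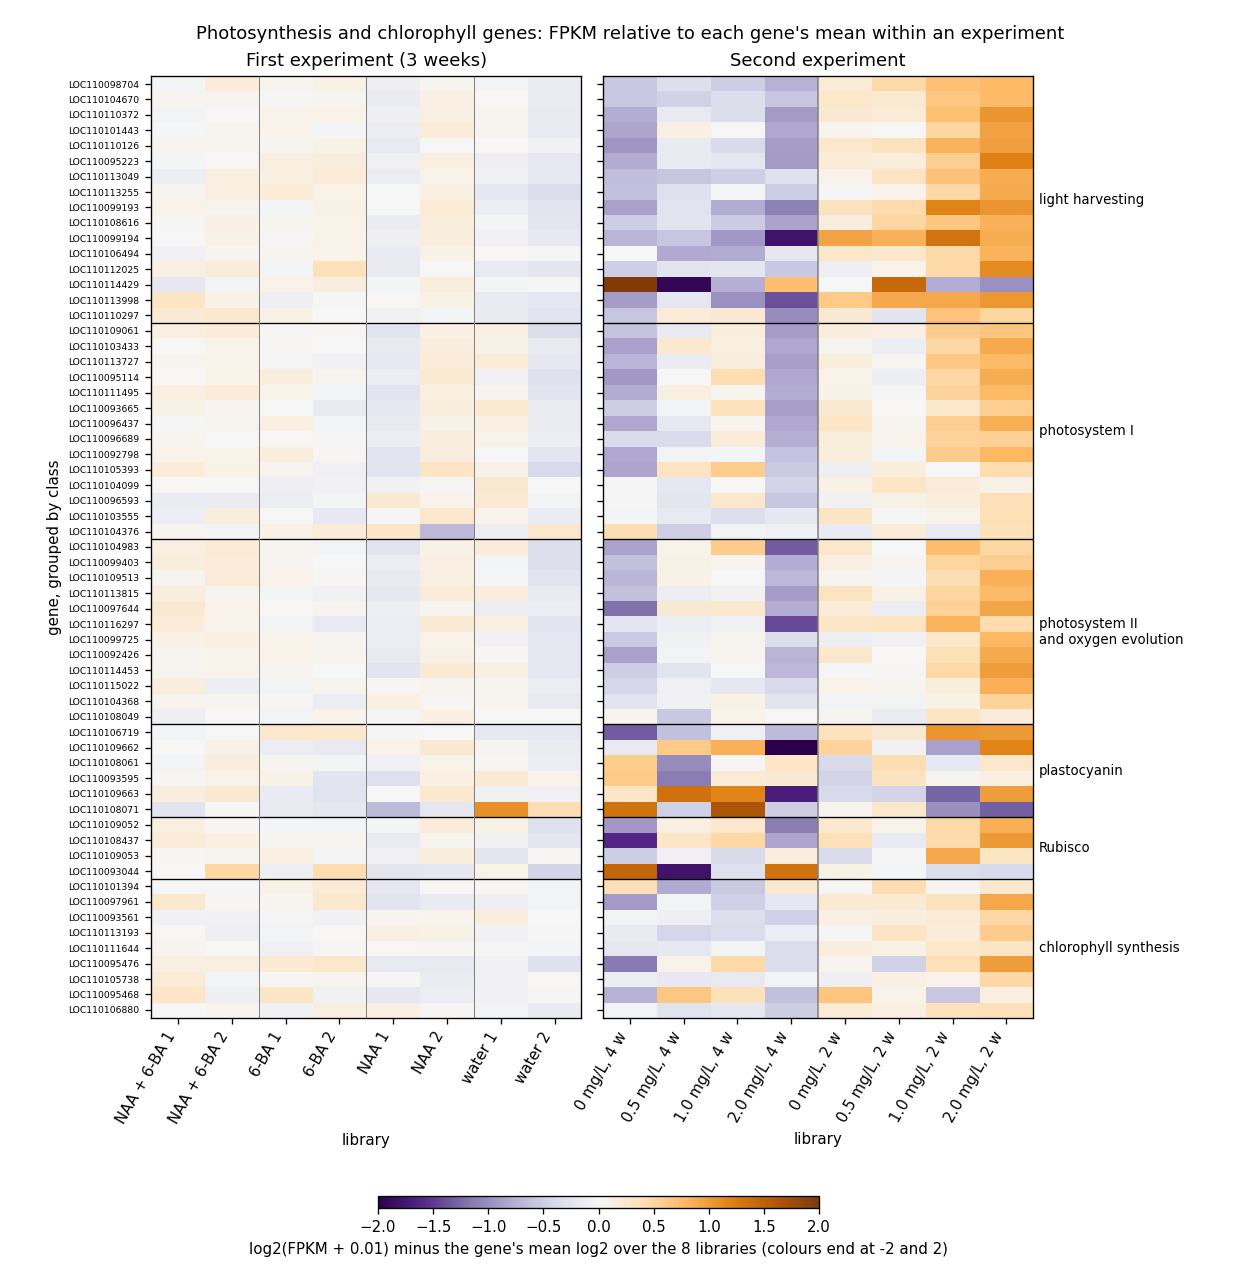
Each row is 1 of the 61 tested genes, grouped by class, and each column 1 library. Colour gives log2(FPKM + 0.01) minus the gene's own mean over the 8 libraries of that experiment, orange above and purple below it. The left panel is pale apart from LOC110108071, high with water, and LOC110104376, low in NAA replicate 2, with NAA replicate 1 and water replicate 2 slightly low in most rows, whereas in the right panel the 2-week library with 2.0 mg/L was highest in 42 genes and the 4-week library with 2.0 mg/L lowest in 27.

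In the 2-month plantlets, few of these genes passed a test of hormone treatment. With both hormones against water, edgeR's quasi-likelihood test (Benjamini-Hochberg adjustment over 19420 genes) called 2 genes higher and 1 lower of 61, where 3.01% of all genes were called higher and 4.06% lower (7.08% in all). With 6-BA against water 3 were higher and 1 lower (3.11% and 4.2% of all genes, 7.31% in all), and with NAA against water 0 were higher and 1 lower (1.41% and 0.824%, 2.23% in all). These comparisons share the water libraries. With 6-BA added to NAA, against NAA alone, 0 of 61 passed, where 1.94% of all genes were called higher and 3.64% lower (5.58% in all). There 6 of 61 genes and 19.8% of all genes had an unadjusted p under 0.05.

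Over all 8 libraries, the 4 with 6-BA against the 4 without it, with NAA as a covariate, gave 3 higher and 1 lower (5.92% and 7.46% of all genes, 13.4% in all). The 4 libraries with NAA against the 4 without it gave 0 of 61 and 0.0% of all genes (4 of 61 genes and 9.88% of all genes at an unadjusted p under 0.05). DESeq2 called 4 of 61 for both hormones (9.38% of all genes), 5 for 6-BA (9.54%), 2 for NAA (3.72%), 0 for 6-BA added to NAA (8.13%), 6 for 6-BA over NAA status (16.3%) and 2 for NAA over 6-BA status (1.01%). At an unadjusted p under 0.05 edgeR had 11, 8 and 8 of 61 genes for both hormones, 6-BA and NAA against water (20.9%, 21.5% and 11.9% of all genes), and 7 of 61 for 6-BA over NAA status (28.6%). The median log2 fold change of the 61 genes was 0.10 for both hormones, 0.10 for 6-BA and 0.10 for NAA against water, and the median over all genes was 0.00093, 0.0035 and 0.00083.

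In the NAA group and the water group most genes differed between replicates in 1 direction. Of the 61 genes, 55 were lower in NAA replicate 1 than in NAA replicate 2, and 54 were higher in water replicate 1 than in water replicate 2. With both hormones 43 were lower in replicate 1, and with 6-BA 32 were higher and 29 lower. The median absolute log2 difference between replicates was 0.22 for NAA and 0.19 for water, against 0.15 and 0.13 over all genes, while it was 0.08 for both hormones and 0.07 for 6-BA. Without water replicate 2 the median of the 61 genes with 6-BA against water was 0.03, and without water replicate 1 it was 0.18.

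Among the 16 light harvesting genes, all had a fitted log2 fold change above 0 with 6-BA against water (median 0.16), and 1 passed the test. With NAA against the same water libraries 14 were above 0 and 2 below (median 0.14). With 6-BA added to NAA, which shares no library with 6-BA against water, 7 were above 0 and 9 below (median -0.009). The gene that passed with 6-BA against water was LOC110113255, which encodes CP26, a minor antenna protein of photosystem II. CP26 stood at 1254 and 1164 FPKM with 6-BA, against 956 and 876 FPKM with water, a log2 fold change of 0.38 (SE 0.10, edgeR adjusted p = 0.0488, n = 2 each). The groups did not overlap, but the call was lost in 9 of 14 alternative analyses. With both hormones CP26 had 1130 and 1209 FPKM and with NAA alone 1090 and 1188 FPKM, also above both water libraries, with log2 fold changes of 0.33 and 0.34 that missed the threshold in edgeR and passed it in DESeq2.

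Other antenna genes passed with both hormones. LOC110110297, chlorophyll a-b binding protein 7, had 24.5 and 24.9 FPKM with NAA plus 6-BA, against 18.7 and 17.4 FPKM with water (log2 fold change 0.43, SE 0.10, edgeR adjusted p = 0.0284). It also rose with 6-BA over NAA status (0.24, SE 0.06, edgeR adjusted p = 0.0342), a call lost in 8 of 14 alternatives, with the replicate block and without any 1 library other than water replicate 1. LOC110113998, described as AB96-like, had 614 and 536 FPKM with NAA plus 6-BA, against 444 and 424 FPKM with water (0.38, SE 0.09, edgeR adjusted p = 0.0379). Both genes were apart from water in every library, and both calls on NAA plus 6-BA were lost without either water library or either library with both hormones. The antenna genes with the highest levels did not pass. LOC110098704, of LHCII type 1 and thus of the main antenna of photosystem II, had 4679 and 5409 FPKM with both hormones, 4913 and 5147 with 6-BA, 4458 and 4911 with NAA, and 4600 and 4305 with water. Its largest fitted change against water was 0.16.

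**Figure D2:**
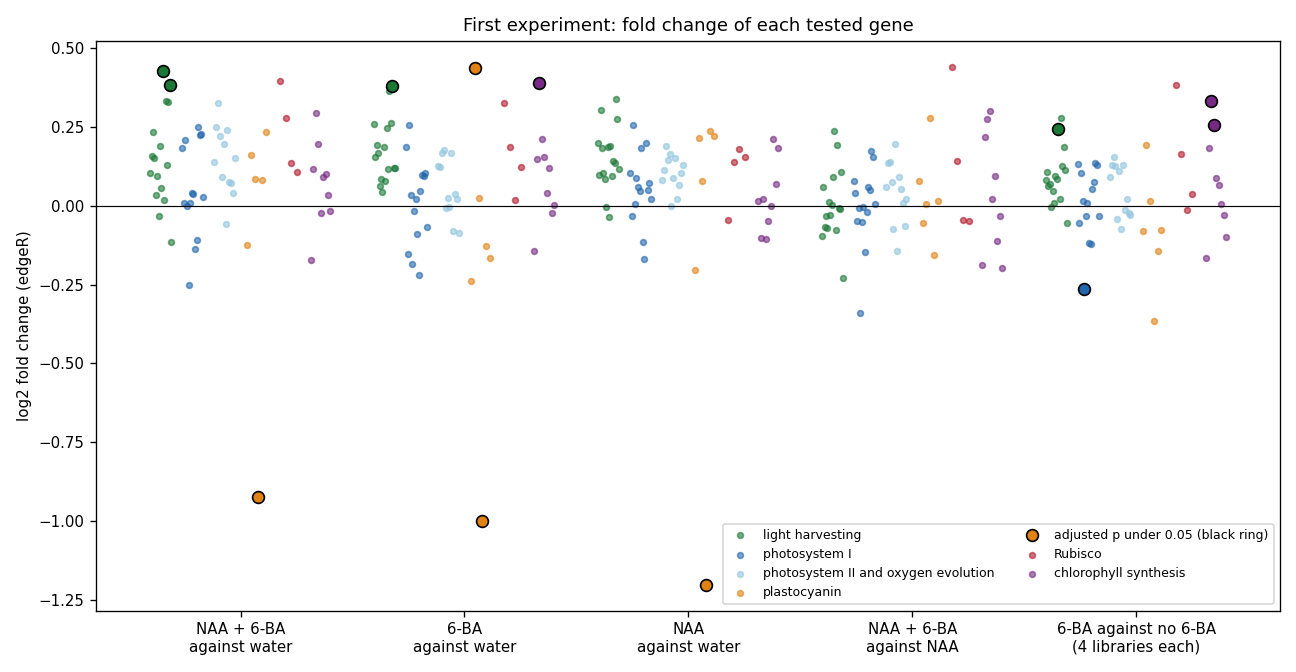
Each point is the log2 fold change of 1 tested gene in the first experiment by edgeR, coloured by class, in 5 comparisons, and black rings mark an adjusted p under 0.05. The 3 lowest ringed points, from -0.92 to -1.20, are the same plastocyanin-like gene, LOC110108071, against the water libraries that the comparisons share, and the points of all other genes lie between -0.34 and 0.44.

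Among the calls of the first experiment, the largest change in each direction was that of a plastocyanin. LOC110106719, matched to plastocyanin A in the deposited annotation, had 647 and 639 FPKM with 6-BA, against 470 and 466 FPKM with water. That was a log2 fold change of 0.44 (SE 0.08, edgeR adjusted p = 0.00857), larger than the gap between replicates. It missed the threshold when water replicate 2 or any 6-BA library was left out (edgeR adjusted p = 0.0596 to 0.0785). With both hormones it had 523 and 541 FPKM and with NAA 533 and 536 FPKM, above both water libraries and below both 6-BA libraries.

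LOC110108071, matched to plastocyanin B, fell with every treatment. It had 109 and 132 FPKM with NAA plus 6-BA, 116 and 113 with 6-BA and 81.9 and 111 with NAA, against 277 and 174 FPKM with water. All 6 treated libraries were below both water libraries, though these differed from each other. The log2 fold changes were -0.92 (SE 0.21, edgeR adjusted p = 0.0288) with both, -1.00 (SE 0.21, 0.0201) with 6-BA and -1.20 (SE 0.21, 0.0201) with NAA. Without water replicate 1 none of the 3 calls remained. The interaction of NAA and 6-BA was 1.28 for this gene and -0.49 for LOC110106719 (edgeR adjusted p = 0.134 and 0.111). No gene of the 61 passed it with edgeR (0.52% of all genes passed, and 5 of 61 genes were at an unadjusted p under 0.05 beside 8.14% of all genes), whereas DESeq2 called these 2 genes (1.79% of all genes). Of all genes 0.154% passed the interaction as higher and 0.366% as lower with edgeR.

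LOC110108071 lies 3311 bases from LOC110108061, which lies 22253 bases from LOC110093595, all plastocyanin-like and on the same scaffold. These neighbours did not pass in any comparison of the first experiment. LOC110108061 had 624 and 720 FPKM with both hormones, 662 and 626 with 6-BA, 612 and 685 with NAA, and 657 and 591 with water. Its groups overlapped throughout. The counting of reads common to near-identical copies is not described, so values of single copies are uncertain.

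No gene of photosystem II or oxygen evolution passed in any comparison of the first experiment (12 tested), and 1 of photosystem I did (14 tested). LOC110096593, described as PHOTOSYSTEM I ASSEMBLY 2, had 34.3 and 34.2 FPKM with both hormones and 34.6 and 37.0 with 6-BA, against 44.1 and 39.7 with NAA and 43.7 and 36.6 with water. The highest 6-BA library exceeded the lowest without it, and the log2 fold change for 6-BA over NAA status was -0.26 (SE 0.08, edgeR adjusted p = 0.0495). The call was lost in 12 of 14 alternatives, among them scaling by library totals. LOC110109061, photosystem I subunit psaK and the most abundant gene of its class, had 4429 and 4599 FPKM with both hormones, 4123 and 4124 with 6-BA, 3375 and 4376 with NAA, and 4393 and 3215 with water. The pair with both hormones was above every NAA and water library, but the NAA replicates differed widely, as did the water replicates, and no comparison passed (0.22 with both hormones against water, edgeR adjusted p = 0.492).

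Rubisco genes did not pass either (4 tested). LOC110109052, the most abundant small chain, had 6101 and 5683 FPKM with both hormones, 5431 and 5409 with 6-BA, 5435 and 6318 with NAA, and 5970 and 4579 with water. LOC110108437, Rubisco activase, which frees Rubisco's active site of bound sugar phosphates, had 2337 and 2248 with both, 2155 and 2139 with 6-BA, 1864 and 2159 with NAA, and 1964 and 1754 with water. For the small chain every group overlapped water. For activase the 6-BA and both-hormone groups lay above water, with log2 fold changes of 0.19 and 0.28 that missed the threshold (edgeR adjusted p = 0.375 and 0.184).

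Of the 9 chlorophyll synthesis genes, 2 rose with 6-BA. LOC110095476 encodes PTC52 (protochlorophyllide-dependent translocon component 52), an oxygenase of the chloroplast envelope in barley and Arabidopsis. It had 18.8 and 18.7 FPKM with both hormones and 19.7 and 20.3 with 6-BA, against 15.0 and 15.0 with NAA and 16.2 and 13.9 with water. Every library with 6-BA was above every library without it, and the log2 fold change was 0.33 over NAA status (SE 0.07, edgeR adjusted p = 0.0112). This was the 1 call on the 64 genes that held in all 14 alternatives. Against water alone, 6-BA gave 0.39 (SE 0.10, edgeR adjusted p = 0.0385), a call lost in 6 of 14 alternatives, among them without water replicate 2 (edgeR adjusted p = 0.214).

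LOC110097961, ChlH, is the large porphyrin-binding subunit of magnesium chelatase, the enzyme that commits protoporphyrin to chlorophyll. ChlH had 209 and 179 FPKM with both hormones and 182 and 209 with 6-BA, against 147 and 158 with NAA and 164 and 169 with water. The libraries with 6-BA were all above those without (log2 fold change 0.26, SE 0.07, edgeR adjusted p = 0.0441), and the call was lost in 7 of 14 alternatives. The other chelatase subunits did not follow it past the threshold. ChlI (LOC110093561) had 73.7 and 72.9 FPKM with both hormones and 76.0 and 73.4 with 6-BA, against 80.0 and 81.6 with NAA and 85.5 and 77.2 with water, lower in every library with 6-BA (-0.17, SE 0.05, edgeR adjusted p = 0.0705), which DESeq2 called (adjusted p = 0.0369). ChlD (LOC110105738) had 19.6 to 25.1 FPKM over the 8 libraries, with libraries with and without 6-BA overlapping.

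The light-dependent step, protochlorophyllide reductase (LOC110101394), was the most abundant gene of the class. It had 461 and 459 FPKM with both hormones, 502 and 538 with 6-BA, 404 and 473 with NAA, and 472 and 450 with water. The 6-BA pair was highest, but the log2 fold change of 0.15 against water missed the threshold (edgeR adjusted p = 0.415). Glutamyl-tRNA reductase 2 (LOC110113193), the entry enzyme, had 138 to 160 FPKM and chlorophyll synthase (LOC110111644), which attaches the phytol tail, 56.8 to 62.6 FPKM over the 8 libraries.

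Lists of related genes are read against all genes, of which 5.92% were called higher and 7.46% lower with 6-BA over NAA status. A list of 22 light and greening regulators (19 tested) had 1 higher and 0 lower with 6-BA against water and 1 of each over NAA status. Of its genes 2 are described as GLK1, a transcription factor that activates antenna and chlorophyll genes in Arabidopsis. LOC110092328 had 17.7 and 19.7 FPKM with both hormones and 17.5 and 18.0 with 6-BA, against 11.0 and 12.9 with NAA and 13.1 and 10.7 with water. All 4 libraries with 6-BA were higher, by a log2 fold change of 0.58 (SE 0.09, edgeR adjusted p = 0.00284). The other, LOC110092244, passed in no comparison, with 23.1 and 25.4 FPKM with both hormones and 27.3 and 25.7 with 6-BA, against 21.1 and 21.3 with NAA and 25.7 and 28.4 with water. Early light-induced proteins, which bind chlorophyll under light stress, differed in direction. LOC110093696 fell by 0.49 on the log2 scale over NAA status (SE 0.11, edgeR adjusted p = 0.0198) and by 0.67 with 6-BA added to NAA (SE 0.14, edgeR adjusted p = 0.0239). LOC110093694 rose with 6-BA added to NAA (0.92, SE 0.21, edgeR adjusted p = 0.0332) and fell with NAA against water (-0.98, SE 0.21, edgeR adjusted p = 0.0464). Both comparisons use the same NAA libraries, on opposite sides. The gene was not called with 6-BA or with both hormones against water.

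Of 14 chlorophyll breakdown genes 2 were higher and 0 lower over NAA status, a share near that of all genes (13.4% in all). Chlorophyllase-2-like LOC110115286, of an enzyme class that removes the phytol tail, had 15.1 and 13.4 FPKM with both hormones and 9.4 and 13.2 with 6-BA, against 7.3 and 6.7 with NAA and 6.1 and 7.0 with water (0.87, SE 0.12, edgeR adjusted p = 0.00155). Of 22 other tetrapyrrole synthesis genes none passed in any of the 7 comparisons of the first experiment. Of 15 genes for cytochrome b6f, ferredoxin and chloroplast ATP synthase 0 were higher and 1 lower over NAA status (LOC110110451, ferredoxin-like, -0.36).

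Of 21 other tested Calvin cycle genes 0 were higher and 1 lower. The transketolase LOC110115773 had 6.8 and 7.2 FPKM with both hormones and 7.6 and 8.4 with 6-BA, against 18.0 and 16.0 with NAA and 17.1 and 19.4 with water (-1.27, SE 0.08, edgeR adjusted p = 1.5e-05). Of 21 photorespiration genes 4 were higher and 2 lower over NAA status, led by the serine hydroxymethyltransferase LOC110116639 (0.28) and the cytosolic phosphoglycerate kinase LOC110098427 (-0.34), a glycolytic enzyme that the word search took in. Of 22 C4 and CAM genes 1 was higher and 2 lower over NAA status. PEPC kinase LOC110096942, which activates the carboxylase of night-time carbon fixation, had 10.7 and 13.1 FPKM with both hormones, 8.6 and 7.9 with 6-BA, 5.6 and 7.7 with NAA, and 18.4 and 14.0 with water. Its interaction of NAA and 6-BA was 1.78 (SE 0.28, edgeR adjusted p = 0.0327).

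Markers moved beside these results as follows. Of 25 cytokinin response genes 15 were higher and 3 lower with 6-BA over NAA status, led by cytokinin dehydrogenase 6 (LOC110105324; log2 fold change 5.24). Of 11 root genes 0 were higher and 2 lower, SHORT-ROOT-like LOC110095590 (-1.94) among them. Of 16 dividing-cell genes 3 were higher and 0 lower, and of 15 floral genes 2 were higher and 0 lower, beside 5.92% of all genes higher and 7.46% lower. Their part in the results was not tested.

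In the 9-month plantlets the photosynthesis and chlorophyll genes were lower at 4 weeks than at 2 weeks. No condition was replicated there, so the spread in the fit came from how far libraries lay from an additive model of week and 6-BA, with a coefficient of variation of 0.499 against 0.115 in the first experiment. With edgeR 0 of 61 genes and 0.0% of all genes passed for week. At an unadjusted p under 0.05 there were 29 of 61 genes, all lower at 4 weeks, beside 5.25% of all genes. DESeq2 called 10 of the 61, all lower (0.319% of all genes). The fitted log2 fold change was below 0 for 55 of 61 genes, with a median of -0.63 beside 0.05 for all genes.

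The same holds pair by pair, on the scale of log2(CPM + 1), with CPM the counts per 1000000 counts of the library. At 4 weeks, 34 of 61 genes were lower than at 2 weeks at each of the 4 doses, and none was higher at all 4, whereas 3.74% of all genes were lower at all 4 and 10.3% higher. At least 1 log2 unit lower at 4 weeks were 8, 10, 9 and 31 of 61 genes in order of dose (5.63%, 13.4%, 2.45% and 4.71% of all genes), and at least 1 unit higher were 4, 1, 4 and 2 (10.2%, 4.91%, 7.2% and 20.7%). With TMM-scaled library sizes 15, 8, 11 and 41 were at least 1 unit lower and 3, 1, 3 and 2 higher. The class medians of 4 weeks minus 2 weeks for light harvesting were -0.62, -0.86, -0.96 and -1.29 from the lowest dose to the highest. For photosystem I they were -0.55, -0.32, -0.18 and -1.02, and for photosystem II -0.45, -0.20, -0.19 and -1.17. The antenna genes were thus lower at every dose, and the photosystem genes by most at 0 and 2.0 mg/L. With TMM-scaled library sizes 32 of 61 genes were lower at all 4 doses, 13 of them for light harvesting, beside 5.48% of all genes.

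**Figure D3:**
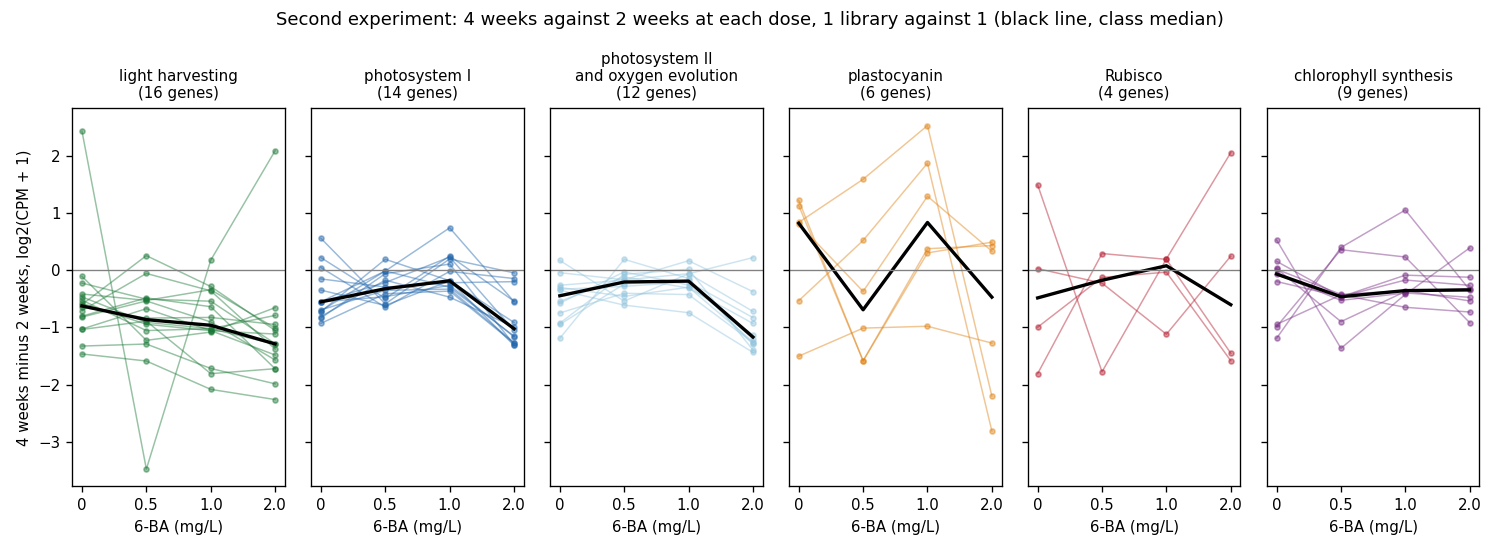
For each tested gene, grouped by class, the points give log2(CPM + 1) at 4 weeks minus that at 2 weeks against 6-BA dose in mg/L, 1 library against 1, and black lines are class medians. At each dose 15 of the 16 light harvesting genes lie below 0, and LOC110114429 runs from 2.44 at 0 mg/L to -3.48 at 0.5 mg/L, while the plastocyanins scatter on both sides.

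Light harvesting held 9 of the 10 genes that DESeq2 called and 14 of its 16 genes were lower at all 4 doses. LOC110098704, LHCII type 1, had 2192, 2579, 2276 and 1919 FPKM at 4 weeks in order of dose, against 3700, 4417, 5297 and 5491 FPKM at 2 weeks. Each 4-week library was below each 2-week library (DESeq2 log2 fold change -1.06, SE 0.18, adjusted p = 1.54e-05; edgeR -1.05, SE 0.29, adjusted p = 0.890). LOC110104670, chlorophyll a-b binding protein 5, had 2205, 2339, 2564 and 2172 FPKM at 4 weeks, against 3906, 3718, 5075 and 5534 at 2 weeks. These libraries did not overlap either.

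The steepest difference was that of LOC110099194, LHCII type 1-like, with 180, 198, 154 and 85.5 FPKM at 4 weeks, against 565, 531, 734 and 546 at 2 weeks. DESeq2 gave -1.95 (SE 0.30, adjusted p = 1.88e-06) and edgeR -1.94 (SE 0.29, adjusted p = 0.890). AB96-like LOC110113998 had 45.4, 72.3, 42.8 and 32.5 FPKM at 4 weeks, against 130, 159, 159 and 173 at 2 weeks. CP26 (LOC110113255) had 361, 455, 545 and 389 at 4 weeks, against 544, 584, 771 and 1037 at 2 weeks, its 4-week library with 1.0 mg/L just above the lowest 2-week library. LOC110099194, AB96-like and CP26 in this experiment are given because they were extreme or were called in the first.

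The 10th gene was the plastocyanin LOC110106719, with 527, 864, 1250 and 836 FPKM at 4 weeks, against 1691, 1552, 2755 and 2672 at 2 weeks. No 4-week library reached a 2-week library (DESeq2 -1.35, SE 0.27, adjusted p = 0.000667; edgeR -1.34, SE 0.28, adjusted p = 0.890). The other plastocyanins did not share this order. LOC110109662 had 453, 790, 934 and 124 FPKM at 4 weeks, against 741, 489, 284 and 1161 at 2 weeks, and its neighbour 858 bases away, LOC110109663, had 47.8, 99.3, 88.8 and 12.1 against 29.7, 28.6, 16.1 and 77.9. Both were lowest at 4 weeks with 2.0 mg/L.

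Photosystem and Rubisco genes followed the libraries rather than the week alone. Subunit psaK (LOC110109061) had 2469, 3265, 4135 and 1985 FPKM at 4 weeks, against 4095, 4003, 5539 and 5875 at 2 weeks. Photosystem I subunit XI (LOC110103433) had 1430, 3088, 2870 and 1485 at 4 weeks, against 2671, 2403, 3639 and 4875 at 2 weeks. For both, 4 weeks with 0 and with 2.0 mg/L were the lowest libraries of all 8, and the 4-week libraries with 0.5 and 1.0 mg/L reached or approached the 2-week range.

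The photosystem II polypeptide LOC110104983, PsbR, had 1633, 3145, 4470 and 1185 FPKM at 4 weeks, against 3509, 2939, 4929 and 4119 at 2 weeks. Reaction centre W protein (LOC110099403) had 1477, 2418, 2321 and 1325 FPKM at 4 weeks, against 2437, 2331, 3219 and 3334 at 2 weeks. The same order recurred, with 0 and 2.0 mg/L lowest at 4 weeks.

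Rubisco small chain LOC110109052 had 4423, 9172, 10077 and 3865 FPKM at 4 weeks, against 9976, 8895, 11515 and 15290 at 2 weeks. Rubisco activase had 1093, 4056, 4598 and 1863 at 4 weeks, against 4332, 2945, 4499 and 6731 at 2 weeks. At 4 weeks both had their 2 lowest values of the experiment with 0 and with 2.0 mg/L. At 2 weeks both were highest with 2.0 mg/L, and the 0.5 mg/L library was lower than the 0 mg/L library.

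**Figure D4:**
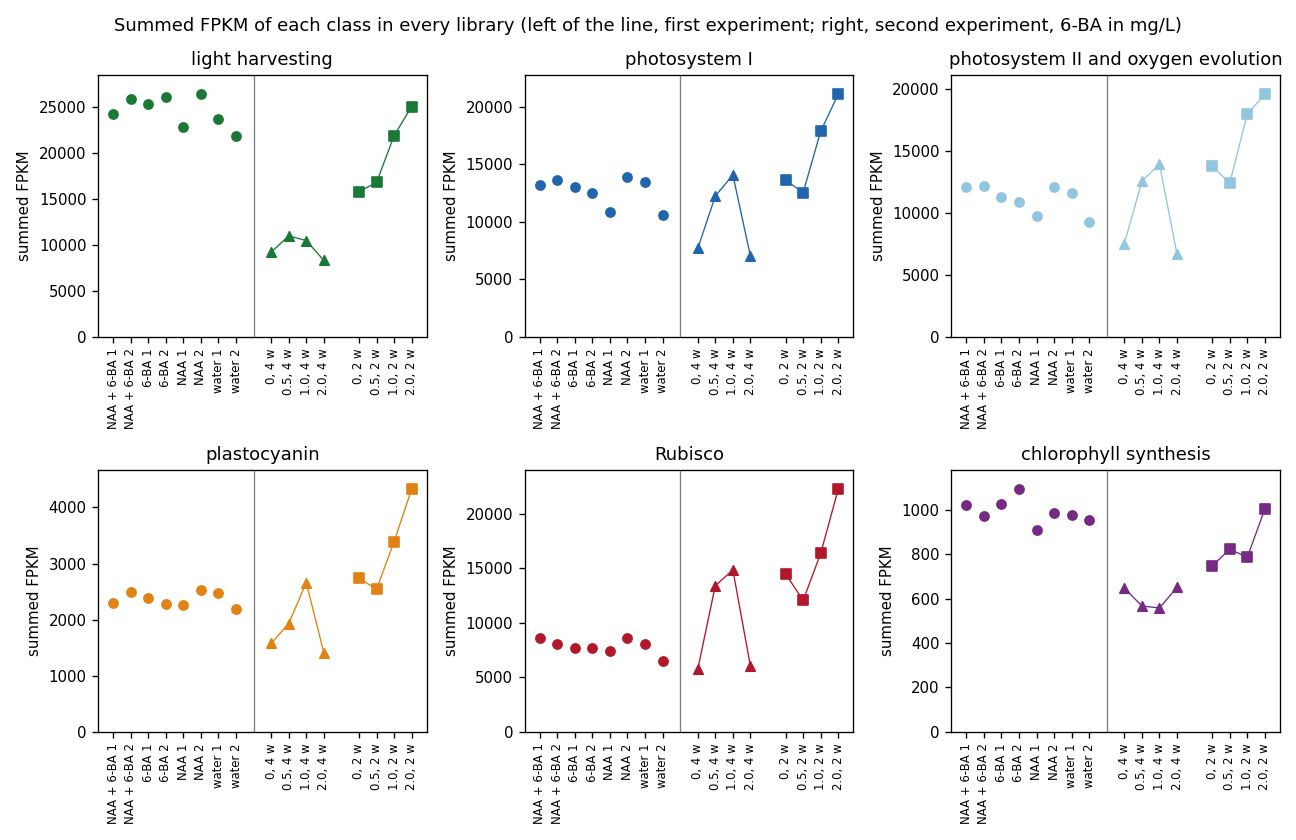
Summed FPKM of each class in every library, with the first experiment left of the grey line and the second right of it, 4 weeks (triangles) before 2 weeks (squares), and the doses of 6-BA in mg/L from low to high. Light harvesting lies between 8308 and 10978 FPKM at 4 weeks and between 15781 and 25014 FPKM at 2 weeks, while Rubisco and the photosystems are higher at 0.5 and 1.0 mg/L than at the other doses at 4 weeks and highest at 2.0 mg/L at 2 weeks. The experiments were normalised separately and heights are not comparable across the line.

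With 6-BA at any dose against 0 mg/L, edgeR called 0 of 61 genes and 0.0% of all genes (0 of 61 genes and 2.34% of all genes at an unadjusted p under 0.05, and 0 of 61 by DESeq2, which called 0.0161% of all genes). In single pairs of libraries, each dose against 0 mg/L at its own week, the median difference of the 61 genes in log2(CPM + 1) was 0.16, 0.24 and -0.16 at 4 weeks from 0.5 mg/L upwards, beside -0.24, -0.18 and -0.01 over all genes. At 2 weeks it was 0.03, 0.14 and 0.34, beside 0.09, -0.15 and -0.20 over all genes. Scaling by TMM brought the medians of all genes to between -0.01 and 0.03, and the medians of the 61 genes were then 0.44, 0.45 and -0.14 at 4 weeks and -0.04, 0.32 and 0.59 at 2 weeks. The direction at 0.5 mg/L and 2 weeks thus turned with the scaling, and the others kept theirs.

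At 4 weeks, 3 genes were at least 1 log2 unit higher and 7 lower with 0.5 mg/L (8.61% and 19.6% of all genes), 7 higher and 3 lower with 1.0 mg/L (9.23% and 17.2%), and 0 higher and 5 lower with 2.0 mg/L (2.67% and 2.72%). At 2 weeks, 1 gene was higher and 0 lower with 0.5 mg/L (3.37% and 2.14% of all genes), 1 higher and 3 lower with 1.0 mg/L (1.9% and 9.31%), and 1 higher and 1 lower with 2.0 mg/L (1.15% and 11.0%). With TMM sizes the balance at 4 weeks with 0.5 mg/L turned, to 8 higher and 5 lower (12.1% and 14.9% of all genes). It was then 11 higher and 2 lower at 4 weeks with 1.0 mg/L (11.9% and 13.7%) and 4 higher and 0 lower at 2 weeks with 2.0 mg/L (2.2% and 8.62%). These single pairs have no replicate check.

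Among the markers of dividing cells, cyclin-B1-1 differed sharply between these libraries, and the summed list differed less. At most 3 of the 16 listed genes were at 0 in a library. Cyclin-B1-1 (LOC110096329), which drives entry into mitosis, had 46.0, 0, 0 and 43.3 FPKM at 4 weeks in order of dose, and 24.3, 35.8, 0 and 0.09 FPKM at 2 weeks. The list of 16 dividing-cell genes summed to 492, 249, 313 and 435 FPKM at 4 weeks and to 349, 402, 318 and 236 FPKM at 2 weeks, and cyclin-B1-1 had 15.6 to 23.6 FPKM in the first experiment. The photosynthesis genes were lowest in the 4-week libraries with the most cyclin-B1-1 and highest in a 2-week library with almost none. The part of this difference in the results was not tested. Cyclin-B1-1 was present at both times at 0 mg/L, but not at the same level (46.0 FPKM at 4 weeks and 24.3 at 2 weeks). At 1.0 mg/L it was listed at 0 at both. In both of these pairs 37 of 61 genes were lower at 4 weeks, beside 13.5% of all genes. Among the 37 were 15 of 16 light harvesting genes. The pairs were chosen after the data were seen. By definition the 37 include the 34 genes that were lower at all 4 doses. The count is therefore no check on a part of the cyclin. The summed FPKM of the 12 root genes was 123 and 114 at 4 weeks with 0 and 2.0 mg/L, the libraries in which the photosystem and Rubisco genes given above were lowest, and 82.1 to 97.2 in the other 6 libraries. Its part in the results was not tested either.

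In pairs of doses where both libraries had the cyclin transcript, the 61 genes had medians of -0.16 (2.0 against 0 mg/L at 4 weeks) and 0.03 (0.5 against 0 mg/L at 2 weeks). Over all genes these were -0.01 and 0.09. The medians of the pairs that differed in it were 0.16 and 0.24 at 4 weeks and 0.14 and 0.34 at 2 weeks, beside -0.24, -0.18, -0.15 and -0.20 over all genes. This grouping rests on 1 gene. The dividing-cell list summed to 349 and 318 FPKM at 2 weeks with 0 and 1.0 mg/L, a pair that differed in the cyclin. Whether the cyclin level has a part in these medians was not tested. GLK1 gene LOC110092328 stood at 12.1, 38.1, 42.0 and 15.2 FPKM at 4 weeks, and at 29.5, 23.6, 42.2 and 63.6 FPKM at 2 weeks. The other GLK1 gene, LOC110092244, had 13.9, 43.6, 39.7 and 22.1 FPKM at 4 weeks, and 30.4, 29.7, 37.1 and 63.2 FPKM at 2 weeks.

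For the 9 chlorophyll synthesis genes the medians of 4 weeks minus 2 weeks in log2(CPM + 1) were -0.064, -0.46, -0.35 and -0.34 in order of dose. They lay nearer 0 than those of both photosystems at 0 and 2.0 mg/L and farther from 0 at 0.5 and 1.0 mg/L. At all 4 doses 3 of the 9 were lower, and 6 of 9 with TMM-scaled library sizes. Protochlorophyllide reductase had 289, 128, 153 and 262 FPKM at 4 weeks, against 226, 295, 229 and 263 at 2 weeks, so that it was lowest with 0.5 and 1.0 mg/L at 4 weeks, where the photosystem genes were not. ChlH had 76.6, 140, 104 and 125 at 4 weeks, against 167, 168, 183 and 274 at 2 weeks, with no overlap. ChlD had 23.3, 22.2, 22.4 and 24.4 at 4 weeks, against 23.6, 27.4, 26.6 and 35.1, and ChlI 85.9, 82.8, 71.4 and 64.1 against 95.9, 98.9, 102 and 123.

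In FPKM the entry enzyme and the last step were also lower at 4 weeks. Glutamyl-tRNA reductase 2 had 75.9, 63.2, 66.8 and 78.5 FPKM at 4 weeks, against 83.9, 105, 96.7 and 129 at 2 weeks, and its binding protein (LOC110106880) 19.4, 16.6, 17.2 and 14.0 against 22.9, 21.6, 25.6 and 26.1. Chlorophyll synthase had 52.4, 53.8, 58.9 and 48.0 at 4 weeks, against 68.0, 66.2, 74.2 and 76.2 at 2 weeks. None of these 3 overlapped between weeks in FPKM. Their fitted edgeR log2 fold changes of -0.53, -0.51 and -0.41 had an adjusted p of 0.890 each. On the scale of log2(CPM + 1), glutamyl-tRNA reductase 2 was not lower at 4 weeks with 0 mg/L, where the difference was 0.033.

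PTC52 (LOC110095476) had 13.0, 30.1, 39.1 and 22.5 FPKM at 4 weeks, against 29.6, 20.7, 37.1 and 56.6 FPKM at 2 weeks. Against 0 mg/L of the same week it was higher at every dose except 0.5 mg/L at 2 weeks, where it was lower. Its neighbour LOC110095468, 9016 bases away on the same strand and also described as PTC52-like, had 11.6, 30.5, 25.1 and 12.6 at 4 weeks, against 30.8, 20.5, 13.2 and 21.3 at 2 weeks.

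Some copies ran against the rest of their class, and were picked out after their values were seen. LHCII type 1 gene LOC110114429 had 561, 31.0, 69.5 and 195 FPKM at 4 weeks, against 117, 316, 68.6 and 59.6 FPKM at 2 weeks, an 18.1-fold range that was the widest of the 61 genes. It was highest at 4 weeks with 0 mg/L, where the other antenna genes were low. In the first experiment it had 2091 to 2672 FPKM, behind LOC110098704 and LOC110104670 among the antenna genes by mean level. It lies 82957 bases from LOC110099193 and on the same scaffold as LOC110099194, both also of LHCII type 1. LOC110099193 had 216, 328, 229 and 188 FPKM at 4 weeks, against 503, 541, 900 and 820 at 2 weeks, in the order of the class.

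Rubisco small chain LOC110093044 had 93.0, 9.8, 27.3 and 84.9 FPKM at 4 weeks, against 36.4, 32.8, 26.3 and 25.7 at 2 weeks. Its high libraries were those in which the main small chain, LOC110109052, was lowest. Plastocyanin-like LOC110108061 had 357, 118, 243 and 292 FPKM at 4 weeks, against 183, 319, 209 and 285 at 2 weeks, and LOC110093595 had 185, 55.9, 138 and 142 against 88.7, 153, 124 and 133. LOC110104376, a low photosystem I antenna-like gene, had values between 1.5 and 2.7 FPKM. Together with it and with protochlorophyllide reductase, these copies were highest or close to their highest at 4 weeks with 0 mg/L. Cyclin-B1-1 was also highest in that library. A link between them was not tested, and the copies were picked after their values were seen.

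**Figure D5:**
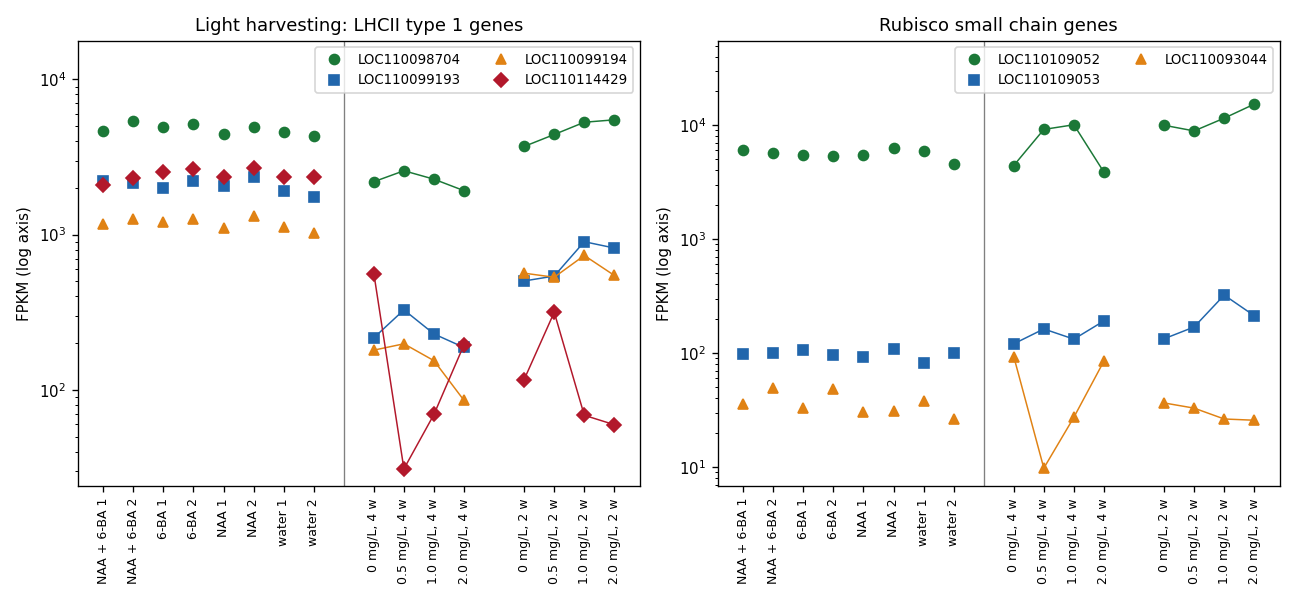
FPKM on a log axis of 4 LHCII type 1 genes (left) and 3 Rubisco small chain genes (right) in every library, with the first experiment left of the grey line and the second right of it, 4 weeks before 2 weeks and doses from low to high. In the second experiment LOC110114429 runs between 31.0 and 561 FPKM against the order of its relatives. LOC110093044, between 9.8 and 93.0 FPKM, runs against LOC110109052, and LOC110109053, between 120 and 322 FPKM, has an order of its own. In the first experiment the copies keep their order except in 1 library with both hormones, where LOC110099193 exceeds LOC110114429. The experiments were normalised separately.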

How the data were processed

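The deposited tables of each experiment hold raw counts per gene and, per the file headers, FPKM with gene length and position. The submitters' processing notes name HISAT2 2.0.6, Cufflinks 2.2.2 and, without a version, edgeR. Genome build, strandedness and the treatment of multiply mapped reads are stated neither in the labels nor in the headers. Tested on the files, the authors' FPKM followed library totals in the first experiment and another effective library size in the second. Positions are the authors'; 63 of the 64 genes matched a RefSeq gene table by symbol. No column belonged to other samples (0).

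Counts were fitted in R 4.3.3 with edgeR 4.0.16 (filterByExpr, TMM, quasi-likelihood test, Benjamini-Hochberg at 0.05 over all 19420, 19303 or 21267 genes tested), on 4 groups or NAA plus 6-BA in the first experiment and week plus any 6-BA in the second. Alternatives were DESeq2 1.42.0, limma 3.58.1 on log2(FPKM + 1) or log2(FPKM + 0.1), library totals, no filter, a dose slope, a replicate block and leaving out each library. The fits were checked on simulated data. Single libraries were compared as log2(CPM + 1) on library totals, with TMM sizes or 0.1 CPM as alternatives. Replicates are labelled biological, and replicate pairs differed by 17.1 to 29.1 times sampling noise (chi-square per degree of freedom).

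Genes and lists were chosen with earlier results of these data known. Named by rule are the 2 genes of each class with the highest mean FPKM in the second experiment, in each comparison the 2 called genes with the lowest p per direction, the chelatase, both reductase and synthase genes, and in each other list the called gene with the lowest p per direction; any other gene was chosen after its values were seen. LOC110108049 and LOC110113815 overlap other genes, and reads there cannot be told apart.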

Additional observations from a re-analysis of the deposited data

Results flagged for a closer look

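For 6 of 61 genes (9.84%, beside 6.96% of all genes tested) every 6-BA library of the second experiment lay on one side of 0 mg/L at 4 weeks and on the other at 2 weeks. The difference between weeks was not tested, since each condition had 1 library. LHCII type 1 gene LOC110098704 had a median difference in log2(CPM + 1) over the 3 doses of -0.15 at 4 weeks and 0.33 at 2 weeks, chlorophyll a-b binding protein 4 (LOC110108616) -0.22 and 0.43, and chlorophyll a-b binding protein 3 (LOC110106494) -0.97 and 0.066. With TMM-scaled library sizes these 3 no longer met the criterion. Plastocyanin-like LOC110108061 had -0.75 at 4 weeks and 0.39 at 2 weeks, and its neighbour LOC110093595 -0.62 and 0.33. PTC52-like LOC110095468 ran the other way, with 0.89 at 4 weeks and -0.75 at 2 weeks. The last 3 genes met the criterion under TMM too. In all, 5 of 61 genes met it under TMM, some of them only there, beside 1495 of 21267 genes tested.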

How the results depend on the processing

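No direction of a named call was reversed in any alternative run. DESeq2 called 2 genes for NAA against water, 2 for the interaction, 2 for NAA over 6-BA status and 10 for 4 against 2 weeks, where edgeR called 1, 0, 0 and 0. Leaving out 1 library at a time gave 0 to 4 calls for 6-BA against water, 0 to 1 for NAA, 0 to 3 for both hormones and 1 to 2 for 6-BA over NAA status; a lone library was then assumed to vary like the other groups. With the replicate number as a block 2, 0 and 1 genes were called for 6-BA, both hormones and 6-BA over NAA status. Correlations of same-numbered deviations ran from -0.15 to 0.21, which cannot exclude a shared batch. No label says that the number marks one. With TMM sizes 4 genes (4 higher, 0 lower) instead of 2 (1 of each) passed 1 log2 unit with 2.0 mg/L at 2 weeks, 8 higher and 5 lower instead of 3 and 7 with 0.5 mg/L at 4 weeks, and 11 higher instead of 7 with 1.0 mg/L at 4 weeks; between weeks 15 instead of 8 were lower at 0 mg/L and 41 instead of 31 at 2.0 mg/L. Genes lower at 4 weeks at all 4 doses were 32 with TMM sizes. With each dose left out, a setting chosen after seeing the data, 34 to 39 were lower at the other 3 doses, beside 5.85% to 8.24% of all genes. Leaving out a dose cannot bring this count below 34, so it is no check on it. Scaling by library totals moved the median of all genes by -0.12 for any 6-BA and by 0.18 for week, and the median of the 61 genes for any 6-BA from 0.30 to 0.13. The second experiment has no replicates.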
